A study of Mus musculus with 8 samples.

Results

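The MHC class II group held 8 genes: the chain genes H2-Aa, H2-Ab1, H2-Ea and H2-Eb1, the peptide editors H2-DMa and H2-Oa, the invariant chain gene Cd74 and the coactivator gene Ciita. They were taken by name, each through a probe annotated with that gene symbol alone, and all 8 had 1 such probe among the 13840 genes named by single-symbol probes. They were read in 8 RNA pools, each of 6 male mice and each on 1 single-channel array, from liver and hypothalamus. The pools were of C57BL/6J (B6) or of B6.CAST-17, a homozygous congenic line in which part of chromosome 17 comes from the CAST strain on a B6 background. Mice were on LabDiet chow, or for 24 h could choose between diets of carbohydrate with protein and of fat with protein, each with 22% protein and 78% of the other macronutrient (2-choice).

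Before pooling, 20 to 25 mice per strain had chosen their diet for 10 days, and those furthest apart in nutrient intake were kept, put back on chow for 6 weeks and then offered the choice again. The pools are therefore of selected mice, both strains went through the same selection, and the extent of the donor segment is not given in the sources used here. A sampling time of 4 h before lights out is given with the 2-choice arm. No tissue, strain and diet combination was repeated, so no array has a replicate and errors below come from a model fitted over all 8 arrays.

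Class II molecules are pairs of an alpha and a beta chain that carry peptides of ingested proteins to the surface of antigen-presenting cells, where CD4+ T cells read them. In mice H2-Aa and H2-Ab1 encode the chains of the isotype I-A, and H2-Ea and H2-Eb1 those of I-E. The invariant chain, product of Cd74, fills the groove of new class II pairs and guides them to endosomes. There H2-DM, with H2-DMa as its alpha chain, swaps the last invariant chain fragment for peptide, and H2-O, with H2-Oa as its alpha chain, restrains H2-DM. Ciita is the coactivator that switches these genes on, constitutively in dendritic cells and B cells and after interferon gamma in other cells. In liver, class II is known from Kupffer cells, dendritic cells, B cells and sinusoidal endothelium, and in healthy brain its level is low.

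Of the 8 genes, 6 lie on chromosome 17, the chromosome of the congenic segment, while Ciita and Cd74 lie on other chromosomes. H2-Ea is annotated by RefSeq as a transcribed pseudogene in the C57BL/6J reference (GRCm38.p6), and C57BL/6 mice are known to lack a functional H2-Ea because its promoter region is deleted. The chain genes are among the most polymorphic of the mouse. Probe sequences were not used here, so the match of each probe to the CAST allele is not known.

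Class II promoters are known for an X box and a Y box at a fixed spacing, on which the RFX, CREB and NF-Y factors assemble and recruit Ciita. RefSeq start-site windows (250 bases before to 50 after the start) were on hand for 4 of the 8 genes, H2-Aa, H2-Eb1, H2-Oa and H2-DMa. They are shown because these genes were measured together in liver below. Each stretch is from the C57BL/6J reference, 5′ to 3′ on the strand of the gene, with the letters GCAAC of the X box and CTGATTGG of the Y box in capitals.
H2-Aa: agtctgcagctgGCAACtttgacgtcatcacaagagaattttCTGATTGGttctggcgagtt
H2-Eb1: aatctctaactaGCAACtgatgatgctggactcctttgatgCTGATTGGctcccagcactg
H2-Oa: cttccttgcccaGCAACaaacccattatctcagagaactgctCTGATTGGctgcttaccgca

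The H2-Aa stretch is chr17:34287855-34287916 on the minus strand, H2-Eb1 chr17:34305764-34305824 and H2-Oa chr17:34092291-34092352, both on the plus strand (GRCm38.p6). From the first letter of GCAAC to the first of CTGATTGG there were 30 bases in H2-Aa and H2-Oa and 29 in H2-Eb1, and the Y box began 51, 46 and 62 bases before the start site of H2-Aa, H2-Oa and H2-Eb1. The letters were chosen after these windows had been read, and both strands were searched. GCAAC occurred in 35.2% of 32851 mouse start-site windows and CTGATTGG in 4.10%. Both on one strand, with CTGATTGG beginning 20 to 40 bases after GCAAC, occurred in 30 windows (0.0913%). Neither of the H2-DMa windows held the pair, which says only that these letters are not there. CAST promoter sequence was not used here.

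Levels below are log2 intensities, with quantile normalization across the 4 arrays from each tissue, since the authors' values of the chow and 2-choice arrays had different distributions (median intensity 560 and 1338 in hypothalamus, 700 and 702 in liver). The arrays of the 2 strains of 1 tissue and diet shared a distribution as deposited. Diet and scaling set therefore cannot be told apart, while each strain pair lies in 1 set. A probe was tested where its mean level in the tissue was at or above the 40th percentile, 9.04 in liver and 9.26 in hypothalamus, called the filter level here. Groups follow titles and characteristics, with which some free-text descriptions disagree. The hypothalamus array titled as congenic chow is described as C57BL/6J, so it is called the array labelled congenic chow. Strain differences in hypothalamus that rest on it are also given without that pair. Diet differences in hypothalamus, and those by tissue, have no hypothalamus chow array without that pair, so they were not fitted without it. All 4 liver arrays are described as 2-choice hypothalamus, and the B6 2-choice liver array as congenic, which leaves the diet of the liver arrays resting on titles and characteristics. The tissue labels were checked on marker genes: Alb, the albumin gene, was at 20.07 to 21.40 on the liver arrays and 8.75 to 11.42 on the hypothalamus arrays, and Hcrt, the orexin gene, at 8.22 to 8.89 and 14.48 to 15.98.

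Cd74, H2-Eb1 and H2-Ab1 were brighter in liver than in hypothalamus. In the deposited intensities, Cd74 ranged from 9266 to 33787 over the liver arrays and from 506 to 4334 over the hypothalamus arrays. H2-Eb1 ranged from 12084 to 29506 and from 548 to 3154, and H2-Ab1 from 2278 to 11133 and from 337 to 1808. For each of these genes every liver array stood above every hypothalamus array, and for the rest of the group the tissues overlapped. The share of all probes apart in this way was not counted, so this is not read as a trait of the group. H2-DMa did not separate the tissues, with 689 to 3131 in liver and 689 to 5063 in hypothalamus. Of the 8 genes 7 reached the filter level in liver, Ciita being the exception, and 3 in hypothalamus, H2-Eb1, H2-DMa and Cd74. These ranges were set across tissues that were scaled apart and are given without a test.

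**Figure D1:**
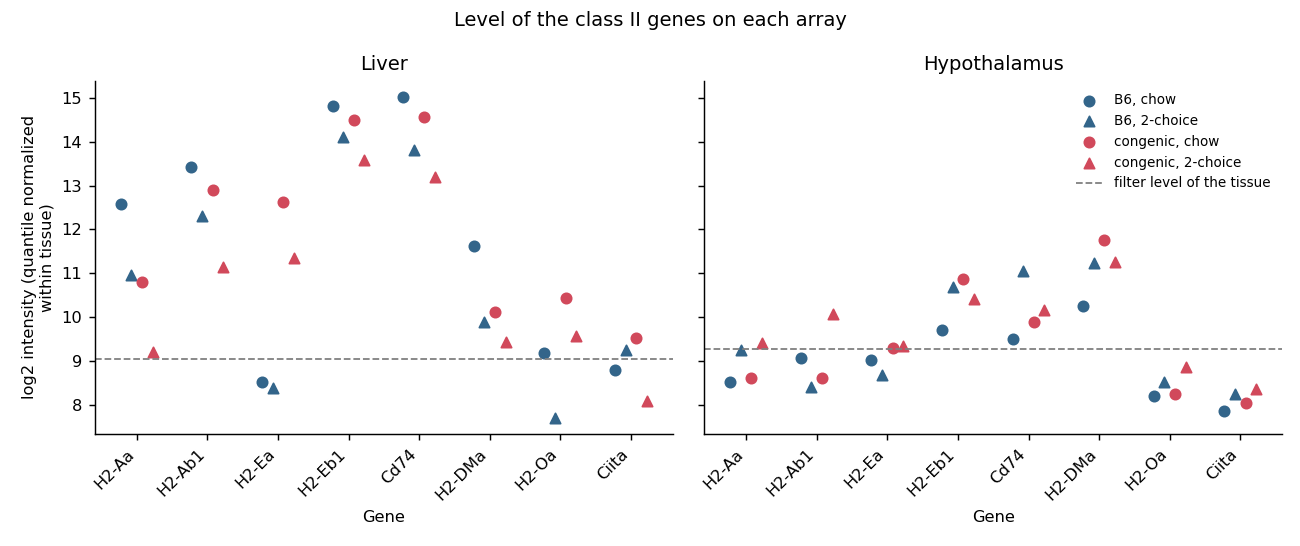
Level of each class II gene (y axis, log2 intensity normalized within tissue) on each of the 4 liver and 4 hypothalamus arrays, with strain by colour, diet by symbol and the filter level of the tissue as a dashed line (9.04 and 9.26). In liver, H2-Ea lay under the line on both B6 arrays and well above it on both congenic arrays, and in hypothalamus most points lay near or under the line.

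The first comparison asked which genes differ between congenic and B6 liver. The I-E alpha chain gene H2-Ea was 8.52 in B6 chow, 8.39 in B6 2-choice, 12.62 in congenic chow and 11.35 in congenic 2-choice liver. Both B6 arrays were under the filter level and both congenic arrays far above it, with no overlap. The congenic pools were higher by 4.10 on chow and 2.96 on 2-choice, and the fitted log2 difference was 3.53 ± 0.62 (SE), a size that depends on B6 values near the floor. H2-Ea reached the filter level only through the congenic arrays, and a gene that does so has to differ.

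Its partner H2-Eb1, the I-E beta chain gene, was bright in both strains. It was 14.82 and 14.10 in B6 chow and 2-choice liver and 14.51 and 13.58 in the congenic arrays, and the strains overlapped. The congenic pools were lower by 1.25-fold on chow and 1.44-fold on 2-choice (log2 -0.42 ± 0.38).

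The I-A alpha chain gene H2-Aa went the other way from H2-Ea. H2-Aa was 12.58 and 10.97 in B6 chow and 2-choice liver and 10.79 and 9.20 in congenic liver, so that the higher congenic array lay just under the lower B6 array. The congenic pools were 3.46-fold lower on chow and 3.41-fold lower on 2-choice, nearly the same size in both diets (log2 -1.78 ± 0.58). H2-Ab1, the I-A beta chain gene, was 13.42 and 12.31 in B6 and 12.91 and 11.13 in congenic liver, and the strains overlapped. Its difference was -0.52 on chow and -1.17 on 2-choice (log2 -0.84 ± 0.64).

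The editors differed in opposite directions. H2-Oa was 9.19 and 7.70 in B6 chow and 2-choice liver and 10.43 and 9.57 in congenic liver, higher in the congenic pools by 1.24 and 1.86 with no overlap (log2 1.55 ± 0.52). One of its B6 values lay under the filter level, and the other just above it. H2-DMa was 11.62 and 9.90 in B6 and 10.13 and 9.43 in congenic liver, with overlap, and differed by -1.49 on chow and -0.47 on 2-choice (log2 -0.98 ± 0.60).

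Cd74 was 15.02 and 13.81 in B6 chow and 2-choice liver and 14.56 and 13.20 in the congenic arrays. The congenic array was the lower of its pair on both diets, by 1.37-fold and 1.53-fold, and the strains overlapped (log2 -0.54 ± 0.38). Ciita was 8.78 and 9.25 in B6 and 9.51 and 8.08 in congenic liver, under or near the filter level throughout. Its strain difference was 0.73 on chow and -1.17 on 2-choice, and it was not tested.

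None of these differences passed. limma, with Benjamini-Hochberg adjustment over 19807 probes, called 0 probes (0%) between strains in liver, with 1318 at an unadjusted p under 0.05. H2-Ea had an adjusted p of 0.41, H2-Aa 0.682 and H2-Oa 0.692, and the other 4 tested genes had adjusted p values from 0.841 to 0.911. The spread in this fit is shared with the hypothalamus arrays. When limma was fitted on the 4 liver arrays alone (252 probes called, 1.27%, of which 0.237% higher and 1.03% lower, with 1 degree of freedom left), H2-Aa missed with an adjusted p of 0.077. H2-Ea had an adjusted p of 0.00536 there, and of 0.0313 without the hypothalamus chow pair (133 probes called). Since its congenic arrays alone brought it into the test, both are given as a description and support nothing.

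By size alone, with a mean difference of 1.5-fold or more that ran the same way in both liver pairs (the 1.5-fold rule), 3 of the 7 tested genes were lower in the congenic pools (H2-Aa, H2-Ab1 and H2-DMa), against 13.3% of all probes tested. H2-Ea and H2-Oa were higher, as were 9.16% of probes, but for both the B6 mean (8.45) lay under the filter level, so they were tested through the congenic arrays and could only be higher. Of the 5 genes with both strain means at the filter level, 0 were higher and 3 lower, against 5.9% and 10.4% of the 16568 such probes. H2-Aa, the 1 gene of these 5 whose strains did not overlap, stands beside 18% of probes lower without overlap (16.5% were higher). The median difference of the 5 was -0.84, against 0.00332 for such probes.

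**Figure D2:**
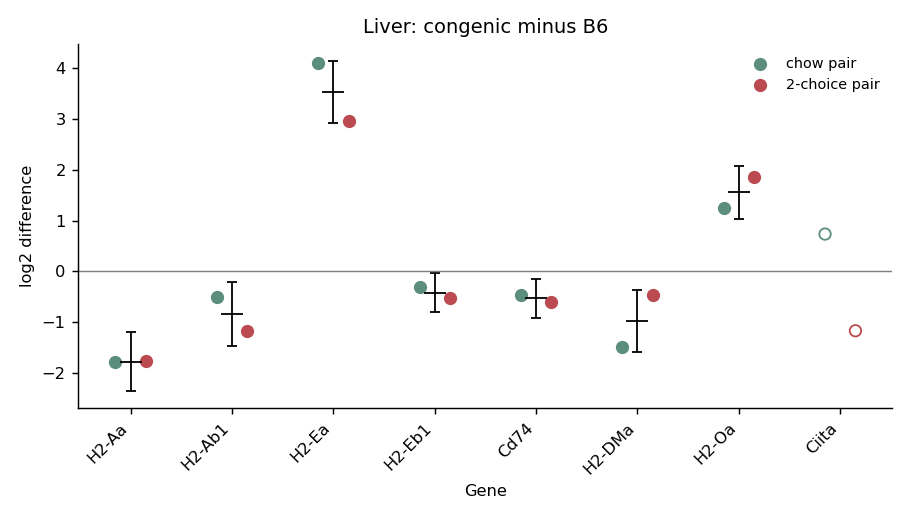
Strain difference of each class II gene in liver (y axis, congenic minus B6, log2), for the chow and the 2-choice pair as circles, with the fitted mean and its SE as the bar. Open circles mark Ciita, which was under the filter level and has no fit. H2-Ea (3.53) and H2-Oa (1.55) lay above 0 in both pairs and the other 5 tested genes below 0 in both.

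Markers of cells that carry class II were set beside these values. Of 10 macrophage and Kupffer cell markers tested, 0 were 1.5-fold apart by the same rule in either direction, and 4 were lower and 1 higher at any size in both pairs, against 28.7% and 28.1% of all probes tested. Adgre1 and Marco were far higher in the congenic pool on chow (2.45 and 3.25) and lower on 2-choice (-0.34 and -0.78). The summed level of those markers, the log2 of their added normalized intensities, was 18.23 and 17.13 in B6 chow and 2-choice liver and 18.32 and 16.78 in congenic liver. Such sums take all genes of a list with a probe, and the brightest genes weigh most in them. Of 4 dendritic cell markers tested, Batf3 was lower (-0.87 ± 0.79) by the rule and 0 higher, and of 3 B cell markers 0 reached it. Of 7 endothelial markers, Lyve1, a hyaluronan receptor of sinusoidal endothelium, was higher (0.87 ± 0.50) and 0 lower. Of 3 general leukocyte markers, the GTPase gene Rac2 was lower (-2.02 ± 0.69). Its congenic mean (10.26 on chow and 7.80 on 2-choice) lay just under the filter level, so it could only be lower. The part of these markers in the class II differences was not tested. Of the class II promoter factors, Rfxank, a subunit of RFX, was higher (0.71 ± 0.65) with nearly all of it in the 2-choice pair (0.04 and 1.39), and the other 5 tested were under the 1.5-fold mark. No antigen processing gene of 6 tested reached it, and the protease Ctss, which trims the invariant chain, differed by -0.32 ± 0.19. In bulk tissue, fewer cells of a type and less RNA per cell cannot be told apart.

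The second comparison set liver after the diet choice against liver on chow. Cd74 was 15.02 and 14.56 on chow in B6 and congenic liver and 13.81 and 13.20 on 2-choice, with no overlap between diets. It was lower after the choice by 2.32-fold in B6 and 2.58-fold in the congenic pool (log2 -1.29 ± 0.38). H2-Eb1 went from 14.82 and 14.51 on chow to 14.10 and 13.58 on 2-choice, again without overlap, by 1.65-fold in B6 and 1.91-fold in the congenic pool (log2 -0.82 ± 0.38). H2-Ab1 went from 13.42 and 12.91 to 12.31 and 11.13, a B6 difference of -1.12 and a congenic difference of -1.77 (log2 -1.45 ± 0.64), also without overlap. The congenic 2-choice array was thus the lowest of the 4.

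H2-Aa had the largest mean diet difference of the group. It was lower by 3.07-fold in B6 and 3.02-fold in the congenic pool (log2 -1.61 ± 0.58), and the diets overlapped, since congenic chow (10.79) lay just under B6 2-choice (10.97). H2-DMa differed by -1.72 in B6 and -0.70 in congenic liver (log2 -1.21 ± 0.60), from 11.62 and 10.13 to 9.90 and 9.43, without overlap.

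H2-Oa differed by -1.49 in B6 and -0.87 in congenic liver (log2 -1.18 ± 0.52), with overlap, and its B6 2-choice value of 7.70 lay under the filter level. H2-Ea can be read in the congenic pools only, where it went from 12.62 to 11.35, 2.41-fold lower. In B6 the H2-Ea difference was -0.13, with both arrays under the filter level, and it says nothing of direction. Ciita was 0.47 higher in B6 and 1.43 lower in the congenic pool, between values near or under the filter level.

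Each of the 7 tested genes was lower after the choice by the 1.5-fold rule, against 12.1% of all probes tested (12.5% were higher), but H2-Ea is counted on its congenic pair, and H2-Oa, with a 2-choice mean of 8.63 under the filter level, could only be lower. Of the 6 genes with both diet means at the filter level, 6 were lower, against 9.13% of 16571 such probes (9.78% were higher). H2-Ea is among these 6, but its diet means reached the filter level only through the congenic arrays. The 4 genes H2-Ab1, H2-Eb1, H2-DMa and Cd74 were lower without overlap, against 21.6% of probes (19.6% were higher without overlap). The median of the 6 was -1.25, and that of such probes -0.00774. Strain and diet comparisons use the same 4 liver arrays, so they are not independent of each other. The strain by diet differences, which have no error term in this design, ran from -1.14 for H2-Ea to 1.02 for H2-DMa among the tested genes. The residual of the fits within a tissue is made of such differences. The SE there thus rests on how far the matched pairs differ, not on variation between mice or repeat arrays.

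No single gene passed in the fit over all 8 arrays (limma, 0 of 19807 probes, 0%, with 1731 at an unadjusted p under 0.05). Cd74 had an adjusted p of 0.396 and the other 6 tested genes 0.488 to 0.798. With the spread of the 4 liver arrays alone (639 probes called, 3.23%, of which 1.72% higher and 1.51% lower), limma called Cd74 (adjusted p = 2.00e-04), H2-Ab1 (adjusted p = 0.00503) and H2-Eb1 (adjusted p = 0.00745) as lower. H2-Aa missed there (adjusted p = 0.0727). Cd74 alone of the 7 also passed without the hypothalamus chow pair (limma, adjusted p = 0.00577), where 428 of 19807 probes were called.

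**Figure D3:**
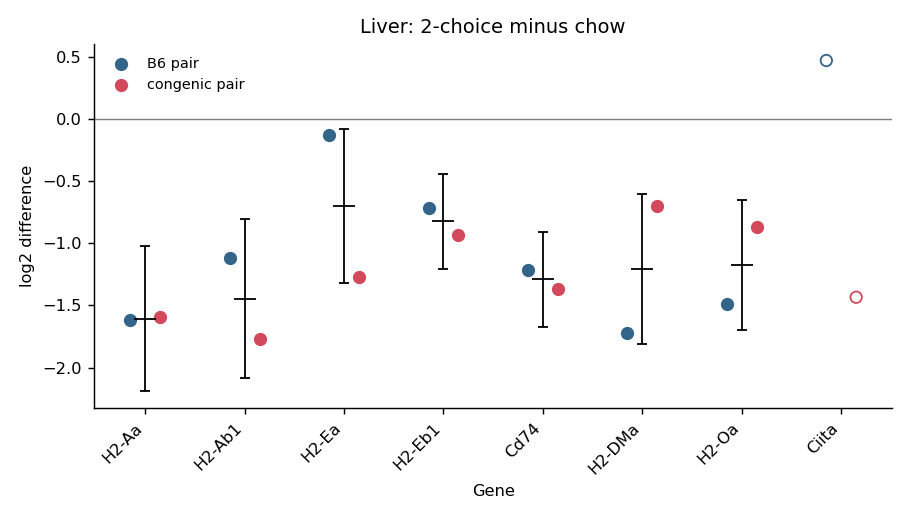
Diet difference of each class II gene in liver (y axis, 2-choice minus chow, log2), for the B6 and the congenic pair as circles, with the fitted mean and its SE as the bar and Ciita, without a fit, as open circles. All 7 tested genes lie below 0 in both pairs, with H2-Ea at -0.13 in B6.

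Kupffer cell and macrophage markers were lower in the same arrays. Of 10 tested, 8 were at least 1.5-fold lower in the mean with the same sign in both strains and 0 higher (median -1.29). Over all probes tested the shares were 12.1% lower and 12.5% higher, which apply also to the liver lists below. In the fit over all 8 arrays limma called 0 of the 10. Vsig4, a complement receptor of Kupffer cells, was at -2.19 ± 0.51, the complement gene C1qb at -1.86 ± 0.22, the scavenger protein gene Cd5l at -1.47 ± 0.36 and the Kupffer cell lectin gene Clec4f at -1.33 ± 0.37. Adgre1 and Marco were split, lower in the congenic pair (-2.64 and -3.44) and slightly higher in B6. The summed marker level was 18.23 and 18.32 on chow and 17.13 and 16.78 on 2-choice, while that of the 8 class II genes was 16.36 and 16.02 on chow and 15.33 and 14.81 on 2-choice. The part of these markers in the class II difference was not tested.

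Markers of other class II carrying cells were also read, though only 3 of 7 B cell and 4 of 8 dendritic cell markers with a probe could be tested. Of 3 B cell markers tested, 0 reached the 1.5-fold rule (median 0.17), with the B cell receptor component Cd79a at 0.47 ± 0.63 and Ms4a1 under the filter level on every liver array. Of 4 dendritic cell markers tested, Clec9a and Batf3 were higher (0.76 and 0.96) and the growth factor receptor gene Flt3 lower (-1.38 ± 0.71). Clec9a, at 9.16 and 8.58 on chow, had a chow mean under the filter level, so it could only be higher. Flt3, at 8.54 and 8.59 on 2-choice, lay under it on both arrays, so it could only be lower. The summed B cell marker level ran from 12.61 to 12.99 over the 4 liver arrays and the dendritic one from 12.04 to 12.47. Sinusoidal and vascular endothelial markers (median -0.49) had 2 of 7 lower by the rule, Clec4g (-1.06 ± 0.54) and Pecam1 (-1.20 ± 0.65), and 0 higher. Their summed level was 16.24 and 16.27 on chow and 15.89 and 15.91 on 2-choice, and its part was not tested either.

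Within the class II pathway, genes of peptide processing were mixed. Of 6 tested, Ctss (-1.55 ± 0.19, adjusted p = 0.125) and the asparagine endopeptidase gene Lgmn (-0.71 ± 0.19, adjusted p = 0.375) were lower by the 1.5-fold rule, and 0 were higher. Ifi30, the thiol reductase that opens disulphide bonds of antigens, was at -0.31 ± 0.32. The ubiquitin ligase genes March1 and March8, which remove class II from the surface, were under the filter level and at 0.24 ± 0.29.

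No regulator of class II was lower by the 1.5-fold rule among those tested. Rfx5, the subunit of RFX that binds the X box, was 1.25 ± 0.59 higher, with a B6 pair at 1.18 and a congenic pair at 1.33. Its chow values lay under the filter level, so it could only be higher, and it did not pass (limma, adjusted p = 0.593). The other 5 promoter factors tested were under the 1.5-fold rule. Of 5 genes of interferon gamma signalling tested and 8 interferon gamma targets tested, 0 reached the rule in either direction, with medians of 0.06 and 0.15. The chemokine gene Cxcl9 was at -0.13 ± 0.45 and the GTPase gene Iigp1 at 0.41 ± 0.44. H2-Ob, the beta chain of H2-O, was 0.62 ± 0.59 higher, at levels of 8.79 to 9.70. Both of its chow values (8.90 and 8.79) lay under the filter level, so it could only be higher. Since H2-Oa could only be lower, their directions cannot be compared.

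**Figure D4:**
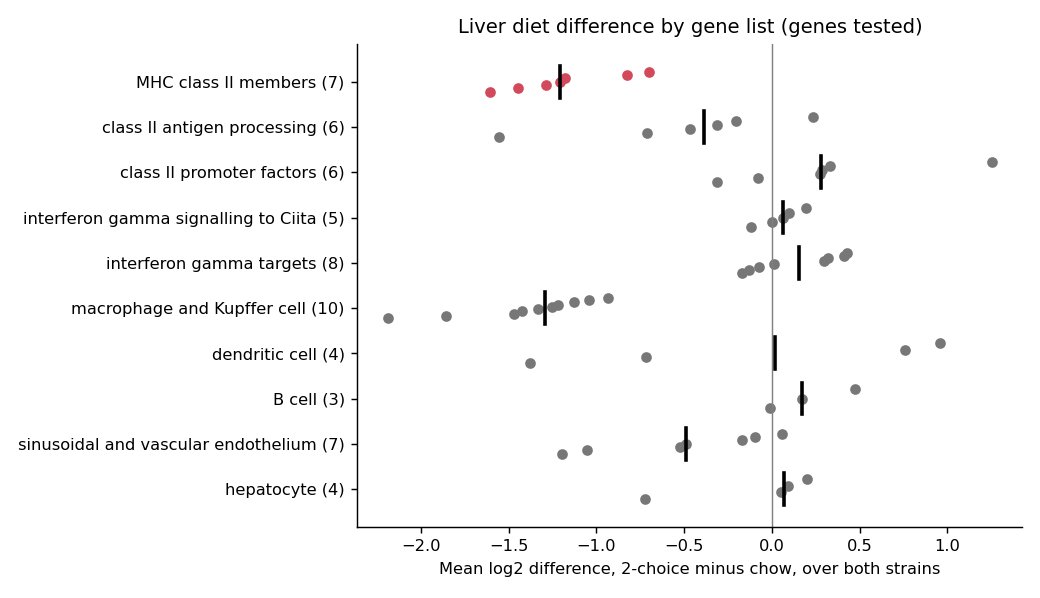
Mean liver diet difference over both strains (x axis, 2-choice minus chow, log2) of each tested gene, grouped by list (y axis, number of genes in brackets), with the median of the list as the black bar. The 7 class II genes (median -1.21, H2-Oa included) and the macrophage and Kupffer cell markers (median -1.29) lie to the left of 0, and the interferon gamma lists straddle it.

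Genes with a pattern like that of Cd74 were sought over all 8 arrays, after each gene was set to the mean of its tissue, among 8210 genes above the filter level in both tissues. The nearest was the haemoglobin alpha gene Hba-a1, with a root mean square difference of 0.20 log2 units, against a median of 0.73. Hba-a1 was 17.33 and 17.13 in B6 and congenic liver on chow and 16.47 and 15.46 on 2-choice. Lhfp (0.22), the glycolytic aldolase gene Aldoa (0.27), Pdgfrl (0.28) and the endoplasmic chaperone gene Dnajb9 (0.28) followed. Within the class II group H2-Eb1 was nearest to Cd74 (0.38, with 72 genes nearer).

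The pattern of H2-Ea was followed less closely. Its nearest genes were Ica1l (0.59), Rad9a (0.65), a subunit of the DNA damage clamp, Ssbp4 (0.71), the selenoprotein gene Selenon (0.71) and the scaffold gene Ush1g (0.72), against a median of 1.35. H2-Oa was at 0.82, with 16 genes nearer, and H2-Aa at 1.95, with 8071 nearer.

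In hypothalamus H2-Eb1, H2-DMa and Cd74 could be tested, and their strain difference depended on the diet pair. Cd74 was 9.50 in B6 and 9.90 in the array labelled congenic on chow, and 11.06 in B6 and 10.15 in congenic hypothalamus on 2-choice. The strain difference was thus 0.40 and -0.91, with overlap (log2 -0.26 ± 0.38). H2-Eb1 was 9.71 and 10.88 on chow and 10.68 and 10.42 on 2-choice in B6 and congenic arrays, which gave 1.17 and -0.26 (log2 0.46 ± 0.38). H2-DMa was 10.24 and 11.76 on chow and 11.24 and 11.25 on 2-choice, which gave 1.52 and 0.01 (log2 0.77 ± 0.60). The chow array labelled B6 was the lowest of the 4 for all 3 genes.

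limma called 0 of 19807 probes between strains in hypothalamus (0%, with 983 at an unadjusted p under 0.05), and the 3 genes had adjusted p values of 0.833 to 0.916. By size, H2-DMa alone of the 3 was higher by the 1.5-fold rule, against 10.2% of probes (10.1% were lower). H2-DMa was also the 1 gene of the 3 whose strains did not overlap, by 0.01, against 11.9% of probes higher and 11.1% lower without overlap. In the 2-choice pair alone, without the pair with disagreeing labels, Cd74 was 1.88-fold and H2-Eb1 1.19-fold lower in the congenic pool and H2-DMa was level (1.01-fold). H2-Ea was 9.02 and 9.30 on chow and 8.69 and 9.35 on 2-choice, all within a narrow band around the filter level, so it gave no check of the strain labels in hypothalamus. H2-Ab1 stood out on 1 array, at 10.07 in congenic 2-choice hypothalamus against 8.41 to 9.07 on the other 3. That array also held the highest Alb of the hypothalamus arrays (11.42), and the part of this in the H2-Ab1 value was not tested.

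After the choice, Cd74 in hypothalamus differed by 1.56 in B6 and by 0.25 in the congenic pool (log2 0.90 ± 0.38, adjusted p = 0.221), without overlap between diets, as for 29.2% of probes. H2-Eb1 differed by 0.97 and -0.45 (log2 0.26 ± 0.38), and H2-DMa by 1.00 and -0.51 (log2 0.24 ± 0.60). limma called 97 of 19807 probes (0.49%) and 0 of the 3 class II genes. Cd74 was 1 of 3 higher by the 1.5-fold rule, against 21.8% of probes (16.6% were lower). The direction of Cd74 held under the other scalings, but its size rose to 1.15 with median centring and 2.41 on the deposited scale, where it passed (adjusted p = 0.0362 and 3.06e-04), as did 7633 and 15430 probes.

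Other markers moved in the same hypothalamus arrays. Ttr, the transthyretin gene, listed here with hepatocyte genes and known also from choroid plexus, rose by 2.56 ± 0.26 (limma, adjusted p = 0.00806), the 1 listed gene among the 97 called. It was 10.03 and 8.81 on chow and 12.08 and 11.87 on 2-choice in B6 and congenic hypothalamus. Alb differed by 1.60 ± 0.39, with most of it in the congenic pair (0.60 and 2.61), the microglial receptor gene P2ry12 by 2.78 ± 0.87 and the leukocyte gene Laptm5 by 1.65 ± 0.77, and none of the 3 passed. Alb (8.75 and 8.81 on chow) and Laptm5 (9.49 and 8.23) had chow means under the filter level, so both could only be higher. P2ry12 and Laptm5 were lowest on the array labelled congenic chow (8.59 and 8.23). P2ry12 was the 1 of 5 tested microglial markers higher by the 1.5-fold rule, with 0 lower, against 21.8% and 16.6% of probes. Of 6 tested genes of interferon gamma signalling 4 were higher by the rule and 0 lower, against the same shares of probes. They were Ifngr1 (0.79 ± 0.25), Ifngr2 (1.11 ± 0.51), Jak2 (1.30 ± 0.64) and Jak1 (2.22 ± 0.86). Jak1 was higher through 1 array, that labelled congenic chow, at 7.35. Jak2, at 9.45 and 8.18 on chow, had a chow mean under the filter level and could only be higher. The part of these genes in the Cd74 difference was not tested.

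**Figure D5:**
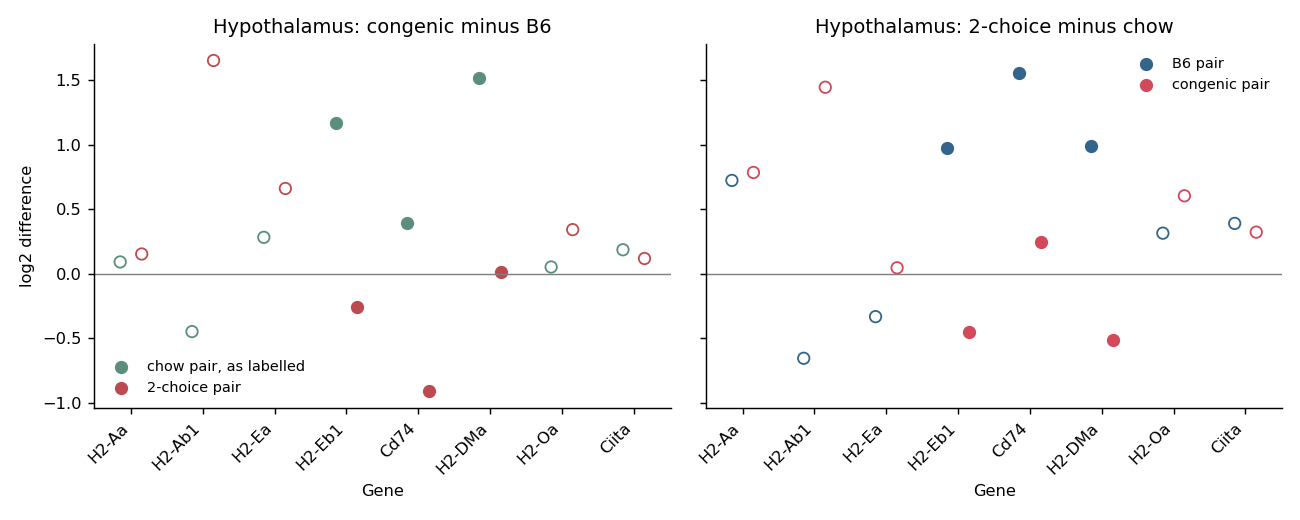
Strain difference (left) and diet difference (right) of each class II gene in hypothalamus (y axis, log2), for each pair as a circle, open where the gene was under the filter level. The 3 tested genes lie higher in the chow pair as labelled than in the 2-choice pair on the left, and higher in the B6 pair than in the congenic pair on the right.

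Whether liver and hypothalamus differed was tested for the same 3 genes. The diet difference of Cd74 in liver differed from that in hypothalamus by -2.19 ± 0.55 (log2, adjusted p = 0.176, limma over 15466 probes, of which 10, 0.0647%, passed), and it was lower in both liver pairs and higher in both hypothalamus pairs. H2-DMa was at -1.45 ± 0.86 and H2-Eb1 at -1.09 ± 0.55, with adjusted p values of 0.437 and 0.367. For the strain difference limma called 0 probes (0%, with 836 at an unadjusted p under 0.05), and H2-DMa had the largest gap of the 3, at -1.75 ± 0.86 (adjusted p = 0.796). Over the 4 strain pairs of both tissues, limma called 0 of 15466 probes (0%, with 660 at an unadjusted p under 0.05). Cd74 was at -0.40 ± 0.27 there (adjusted p = 0.863), and at -0.66 ± 0.16 over the 3 pairs without hypothalamus chow (adjusted p = 0.607, with 9 probes, 0.0582%, called), where it was lower in the congenic array of each pair.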

How the data were processed

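RNA was extracted with TRI-Reagent and cleaned on columns, and 1 microgram was made into digoxigenin-labelled cRNA with an Applied Biosystems kit for single-channel arrays, per the labels' protocols. The authors deposited linear probe intensity for 33012 probes; no source used here gives their background correction or scaling. Of the probes, 14411 had 1 gene symbol, 247 several and 18354 none in the platform annotation, updated through gene IDs.

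Values were taken to log2 and quantile normalized within tissue, and 19807 probes per tissue (15466 in both) were tested. limma 3.58.1 (R 4.3.3), with a mean-variance trend in eBayes, fitted tissue and, nested in each tissue, strain and diet over 8 arrays (2 residual degrees of freedom), or strain over 4 matched pairs as blocks (3), with Benjamini-Hochberg adjustment and a threshold of 0.05. Only variation among these pools enters the p-values, and the number of arrays limits precision. Fits were tested on simulated data, with 100 probes shifted by log2 1 and 100 by log2 2. In the strain and diet comparisons within a tissue, 14 to 24 and 41 to 60 of these were called, with 9 to 17 false calls. Differences of these sizes were thus often missed. In each comparison the false calls were a larger share of all calls than the 0.05 threshold aims at. A call can therefore be weaker than its adjusted p states. Other fits, among them those on the 4 arrays of 1 tissue, were not simulated.

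The 8 genes and all lists were chosen with earlier results of these data known. Other genes were named where at least 1.5-fold apart with the same sign in both pairs, the largest first, or as the nearest 5 in pattern to Cd74 and H2-Ea; others named for contrast were chosen after their values were seen. Other scalings, filters, variance models and left-out arrays were tried.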

Additional observations from a re-analysis of the deposited data

Results flagged for a closer look

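H2-Aa was lower in congenic than in B6 liver in both pairs (mean log2 -1.78) and slightly higher in both hypothalamus pairs (0.12), a gap of -1.90. After the choice of diets it was lower in both liver pairs (-1.61) and higher in both hypothalamus pairs (0.76), a gap of -2.36. H2-Oa was lower after the choice in both liver pairs (-1.18) and higher in both hypothalamus pairs (0.46), a gap of -1.64. These gaps were not tested, because the mean hypothalamus levels of both genes lay under the filter level, as did 3 of the 4 H2-Aa values and all 4 H2-Oa values there.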

How the results depend on the processing

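The counts of probes called by limma depended on which arrays gave the spread. For the strain difference in liver the count of 0 became 252 with the 4 liver arrays alone, 133 without the hypothalamus chow pair and 10 to 78 when an array was left out. For the diet difference in liver 0 became 639, 428 and 9 to 258. For strain in hypothalamus 0 became 21, 48 and 0 to 1376, and 1 with deposited or median-centred values. For diet in hypothalamus 97 became 753 with its 4 arrays alone, 15430 with deposited values, 7633 with median centring, 43 with the filter at the 60th percentile, 0 without a trend and 25 to 1714 with an array left out. For strain by tissue 0 became 30 without the chow pair and 3 to 810. For diet by tissue 10 became 10781 with deposited values, 3901 with median centring, 2 with the stricter filter, 0 without a trend and 4 to 1292. Over both tissues 0 became 9 without the chow pair, and 0 to 9. The cause was not tested.

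Of the class II counts by the 1.5-fold rule, the 7 lower after the choice in liver kept within 1.5 times under every alternative run. The 2 higher in congenic liver became 1 with the stricter filter and 0 where both strain means had to reach the filter level (chosen after seeing the data), and the 3 lower became 1 at 2-fold or when each pair had to reach 1.5-fold. In hypothalamus the 1 higher between strains became 0 under both of these, and the 1 higher after the choice became 3 with deposited or median-centred values, 2 with no filter and 0 at 2-fold or in each pair. Each gene had 1 probe, so averaging probes changed nothing.

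Of 418 alternative values of single genes, 370 kept direction and side of the threshold, 27 newly passed and 21 turned sign. None of the 21 was a strain or diet difference within liver. There, leaving out a liver array returns the value of the other pair. Filters, variance models and left-out hypothalamus arrays leave the liver estimate unchanged. Where both pairs had the same sign, only a change of scaling could have turned it. The strain difference of H2-Eb1 in hypothalamus was -0.26 without the chow pair and -0.26 to 1.17 with an array left out, and that of Cd74 was -0.91 to 0.40. The diet difference in hypothalamus, with an array left out, was -0.45 to 0.97 for H2-Eb1 and -0.51 to 1.00 for H2-DMa, negative without either B6 array. For strain by tissue Cd74 was 0.37 without the chow pair and -0.93 to 0.37 with an array left out. Over both tissues H2-Eb1 was -0.0934 with deposited or median-centred values, -0.37 without the chow pair and -0.37 to 0.20 with an array left out, and H2-DMa was -0.65 to 0.35, positive without any 1 liver array. No paired analysis was possible because each group had 1 array, so no replicate numbers could pair samples; the blocks of the strain fit over both tissues are matched tissue and diet, not replicates. Detection flags were not used here, so values near the filter level have no stated signal over background.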
